A study of Mus musculus with 12 samples.

Results

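The genes described here, Slc2a1, Pfkfb3, Aldoc and Gapdh, serve glucose uptake and glycolysis. They were measured in MC3T3-E1, a clonal line of osteoblast-like cells derived from mouse calvaria, under fluid shear and under static conditions. Every probe of the spotted array whose only gene symbol in the platform annotation was one of these 4 was taken, which gave 9 of 28704 probes. Of these, 2 belonged to Slc2a1 (Entrez gene 20525), 3 to Pfkfb3 (170768), 3 to Aldoc (11676) and 1 to Gapdh (14433). A further probe listed several symbols with a member of the set among them, and was left out by that rule. The genes were chosen by earlier results of the same shear and control samples. Their differences between the groups are therefore a description without a test, and nothing else rests on them. The standard errors and intervals printed with these differences are not adjusted for that choice. They come from a fit whose degrees of freedom count samples rather than arrays, so they can be too narrow. An interval that lies wholly above no change therefore does not show a rise for these genes.

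Each group held 6 samples of total RNA. Both groups came from confluent monolayers on glass, grown in medium with 5% serum. The shear samples were exposed for 5 h to pulsatile flow of 1 Hz at a mean of 5 dyn/cm2 in a parallel plate chamber. The labels give a mixture of oxygen and carbon dioxide over the reservoir of the flowing medium. The control cells stayed static in the same kind of apparatus. For this period, 1% serum and 37 degrees Celsius are recorded for both groups. The line is 1 clone, and separate cultures for the replicates are not stated, so p-values cover the spread from sample to sample alone, part or all of which could be technical. Each of the 6 arrays took 2 samples of the same group, with Cy5 on odd and Cy3 on even replicate numbers. Within a group, each odd replicate was inferred to share its array with the even number after it, so each group rests on 3 arrays.

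A signal is given on the log2 scale, as the net fluorescence of a probe over the median of the 598 probes printed with it in that sample, so that 0 is the middle of that block. The samples held values for 18434 to 23790 probes, and their median net fluorescence ran from 243 to 868. The array of control replicates 3 and 4 stood apart with the fewest values, 20918 and 18434, against 21847 or more in the other samples. Of 11 osteoblast markers 5 were measured with enough values, with a mean log2 signal of 1.42 to 2.67 in control and 1.28 to 2.35 in shear samples. Sparc, which encodes osteonectin, was high (probe 4075, mean 5.48 in control and 5.60 in shear), while the alkaline phosphatase Alpl lay below its block medians (-1.40 and -1.01 in control on probes 225 and 14241). Sparc probe 22975 was less even, at 5.08 ± 0.60 (SD, n = 6) in control and 4.37 ± 2.34 (n = 6) in shear samples. Its lowest shear value was 1.25. Of the osteoblast genes, the homeobox factor Dlx5 passed limma's test as lower under shear, close to the threshold of 0.05 (-0.97 ± 0.23 SE, adjusted p = 0.045). This rests on probe 21247, as Dlx5 probe 28235 had no values, and other settings are not given for it. Probe 21247 also differed between the dyes, with Cy5 higher by 0.37 ± 0.09 (SE, limma adjusted p = 0.0308). Measured markers of endothelium (5), macrophages (4), adipocytes (3), muscle (3), astrocytes and neurons (4) and erythroid cells (1) did not pass in either direction. The erythroid marker, Hbb-b1, read 0.91 to 1.85 in control and 0.43 to 1.88 in shear samples. The mean log2 signal of the muscle markers was 0.70 to 1.62 in control and -0.84 to 0.75 in shear samples. This mean took the probes with a value in each sample, so missing values can shift it. The differences of the 3 muscle probes themselves ran from -0.59 to 0.01, and the part of these markers in the results was not tested.

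Glucose enters most cells by facilitated diffusion through carriers of the Slc2a family, and Slc2a1, also called GLUT1, is the carrier best known in osteoblasts and in dividing cells. Inside the cell the sugar is phosphorylated, and phosphofructokinase then commits it to glycolysis. Pfkfb3 makes the sugar bisphosphate that activates phosphofructokinase, Aldoc is an aldolase that splits the doubly phosphorylated sugar, and Gapdh carries out the next oxidation. Osteoblasts are known for high glucose use with release of lactate in the presence of oxygen. All of these genes are known in other cells as targets of the hypoxia-inducible factors, whose core site is read as ACGTG or GCGTG, and the Myc family binds the related E-box CACGTG.

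The windows of 250 bases before the annotated starts are shown because these sites are the sequence feature that the genes are best known to share. They come from RefSeq on the build GRCm38.p6 and are written 5′ to 3′ on the strand of the gene, in lower case, with every match to these motifs on either strand in capitals. All 4 genes had a window. Pfkfb3 has 2 annotated starts there, as has Aldoc.
Slc2a1, chr4:119108495-119108744, plus strand: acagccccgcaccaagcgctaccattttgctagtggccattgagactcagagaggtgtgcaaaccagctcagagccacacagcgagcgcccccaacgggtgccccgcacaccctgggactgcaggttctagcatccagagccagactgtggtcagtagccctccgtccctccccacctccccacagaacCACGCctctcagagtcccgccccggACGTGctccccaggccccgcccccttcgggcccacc
Pfkfb3, first start, chr2:11553930-11554179, minus strand: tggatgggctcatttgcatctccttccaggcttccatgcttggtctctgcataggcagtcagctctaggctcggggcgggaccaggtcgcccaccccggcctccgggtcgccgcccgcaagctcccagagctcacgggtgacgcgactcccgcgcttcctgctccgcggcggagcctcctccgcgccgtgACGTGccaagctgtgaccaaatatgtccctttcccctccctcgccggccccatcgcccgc
Pfkfb3, second start, chr2:11502091-11502340, minus strand: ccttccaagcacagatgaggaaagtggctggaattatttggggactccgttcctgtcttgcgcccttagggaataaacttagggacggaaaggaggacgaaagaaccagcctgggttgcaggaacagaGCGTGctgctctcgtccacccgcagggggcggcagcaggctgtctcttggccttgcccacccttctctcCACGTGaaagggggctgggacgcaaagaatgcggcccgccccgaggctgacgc
Gapdh, chr6:125165774-125166023, minus strand: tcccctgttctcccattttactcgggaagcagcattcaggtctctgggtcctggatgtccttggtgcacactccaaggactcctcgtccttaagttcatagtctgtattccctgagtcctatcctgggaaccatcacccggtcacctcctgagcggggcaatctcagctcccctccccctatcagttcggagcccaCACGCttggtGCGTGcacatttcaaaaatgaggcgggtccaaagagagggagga

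Slc2a1 held ACGTG from 36 to 32 bases before its start, and CACGC, which is GCGTG on the opposite strand, from 61 to 57 bases before it. The first window of Pfkfb3 held ACGTG from 60 to 56 bases before the start. Its second window held the palindrome CACGTG from 53 to 48 bases before the start, which contains ACGTG on both strands, and GCGTG from 122 to 118. Gapdh held CACGC from 54 to 50 and GCGTG from 44 to 40 bases before its start, and no ACGTG. The windows of Aldoc (chr11:78322823-78323072 and chr11:78323948-78324197, plus strand) held 1 match each, GCGTG from 50 to 46 and CACGC from 39 to 35 bases before the start. Such matches were common. Of 32851 windows of the same length, 16.6% held ACGTG, 28.2% held GCGTG and 38.6% held either, on either strand, while 6.0% held CACGTG. The motifs TATAAA (12.4% of windows) and TGANTCA (6.7%), searched in the same way, were not in the windows of these genes. The matches describe letters only, and do not show a binding site.

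Slc2a1, the carrier that brings glucose into the cell, was about 4 times as high under shear on each of its probes. On probe 7689 the control samples had a lowest, median and highest log2 signal of 0.62, 0.97 and 1.13, and the shear samples of 2.15, 3.13 and 3.27. The groups did not overlap, and the gap between the lowest shear and the highest control sample was 1.02. The net fluorescence behind these values was 744 to 1418 in control and 1433 to 8946 in shear samples, so the probe was well measured in all 12. Its mean was 0.90 ± 0.19 (SD, n = 6) in control and 2.98 ± 0.42 (n = 6) in shear samples. The difference was 2.08 ± 0.33 (SE), a 4.22-fold higher signal with a 95% interval of 2.6 to 6.84.

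The other Slc2a1 probe, 5997, gave nearly the same picture. Its control samples ran from 0.32 over a median of 0.64 to 1.13, and its shear samples from 2.04 over 2.74 to 3.05. The groups were again apart, by 0.90. The means were 0.70 ± 0.33 (SD, n = 6) and 2.66 ± 0.34 (n = 6), with a difference of 1.96 ± 0.36 (SE), or 3.89-fold (95% interval 2.27 to 6.67). By array, the means of probe 7689 were 1.06, 0.78 and 0.87 in control and 2.61, 3.25 and 3.08 in shear, and those of probe 5997 were 0.91, 0.72 and 0.48 against 2.36, 2.71 and 2.92. Shear replicate 2 was the lowest shear sample on both probes. It was labelled with Cy3, and its partner on the array, shear replicate 1, read 3.08 and 2.69. Without the array of control replicates 3 and 4 the differences were 2.01 and 1.97.

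**Figure D1:**
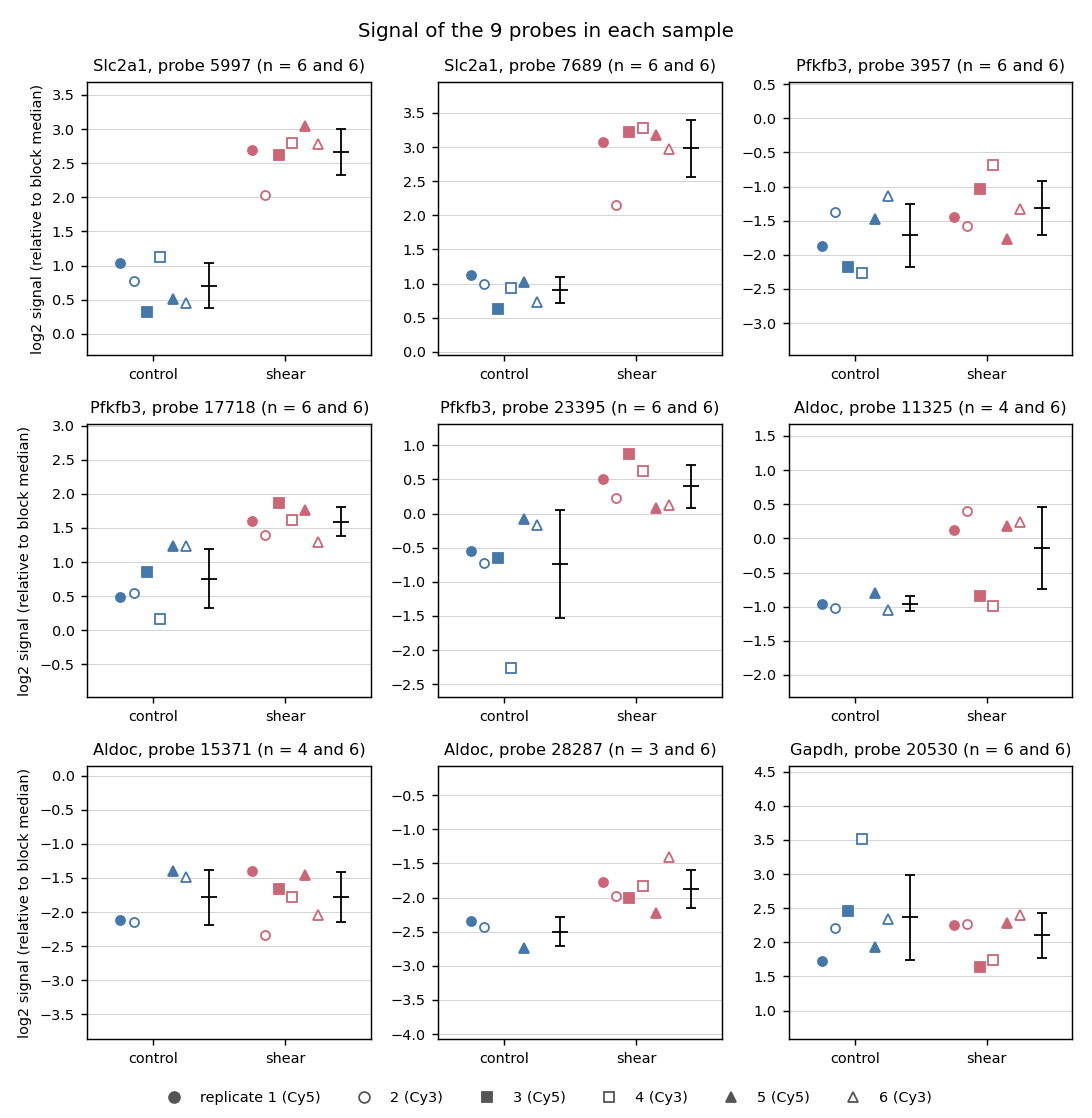
Log2 signal of the 9 probes of Slc2a1, Pfkfb3, Aldoc and Gapdh in each sample (y axis, relative to the block median), with control in blue and shear in red; shapes mark the array and filled or open symbols the dye, and black bars are the mean ± SD over the samples measured. The panels share the same span. Both Slc2a1 panels show the groups apart, Pfkfb3 probe 23395 has a single control sample at -2.26, and the Aldoc probes have no values for control replicates 3 and 4.

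Pfkfb3, the enzyme that sets the level of the activator of phosphofructokinase, was higher under shear on each of its 3 probes, with smaller differences than those of Slc2a1 and unequal ones among its probes. Probe 17718 read 0.17, 0.70 and 1.24 (lowest, median, highest) in control and 1.30, 1.61 and 1.87 in shear samples. The groups touched but did not overlap, with a gap of 0.06, and the control array of replicates 5 and 6, at a mean of 1.24, lay next to the shear samples. Its means were 0.76 ± 0.43 (SD, n = 6) and 1.59 ± 0.21 (n = 6), a difference of 0.84 ± 0.28 (SE), which is 1.78-fold (95% interval 1.18 to 2.7).

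Probe 23395 of Pfkfb3 had the larger mean difference and the wider spread. Its control samples ran from -2.26 over a median of -0.60 to -0.08, and its shear samples from 0.08 over 0.36 to 0.87, apart by 0.16. Its difference was 1.14 ± 0.46 (SE), or 2.2-fold (95% interval 1.11 to 4.37), from means of -0.74 ± 0.79 (SD, n = 6) and 0.40 ± 0.31 (n = 6). Control replicate 4 alone read -2.26, at a net fluorescence of 53, while control replicate 3 on the same array read -0.65 at 311. Without that array the difference was 0.78, and without control replicate 4 it was 0.88.

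The groups overlapped on the third Pfkfb3 probe, 3957, where only 2 of 6 shear samples lay above all controls. It read -2.27, -1.67 and -1.13 in control and -1.78, -1.39 and -0.68 in shear samples, all below the block median. The shear samples above all controls were replicates 3 and 4, which share an array. The difference was 0.41 ± 0.31 (SE), with a 95% interval on the log2 scale of -0.24 to 1.06, and 0.15 without the array of control replicates 3 and 4.

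Aldoc, the aldolase form best known from brain, was higher under shear on some arrays and probes and not on others. None of its probes had a value for control replicates 3 and 4, so its controls are those of 2 arrays. Probe 11325 read -0.96, -1.02, -0.81 and -1.05 in control replicates 1, 2, 5 and 6. In shear replicates 1 to 6 it read 0.13, 0.39, -0.84, -0.98, 0.18 and 0.24. The shear array of replicates 3 and 4, at a mean of -0.91, lay among the controls, and the other 4 shear samples lay above every control. The means were -0.96 ± 0.11 (SD, n = 4) and -0.15 ± 0.60 (n = 6), and the difference 0.81 ± 0.35 (SE), or 1.76-fold (95% interval 1.04 to 2.98). Without that shear array it was 1.20.

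The other Aldoc probes were dim. Probe 15371 read -2.12, -2.14, -1.39 and -1.48 in the same control samples and -2.34 to -1.40 in the shear samples, and its group means were both -1.78. The 95% interval of its difference was -0.77 to 0.78, and the difference turned negative, at -0.03, with samples centred on the probes measured in all of them. Probe 28287 had values in 3 control samples, -2.34, -2.42 and -2.74, too few for the fit. Its shear samples read -2.23 to -1.41, all above those controls, and the group means differed by 0.63. Its net fluorescence was 50 to 105 in control and 52 to 441 in shear samples. These values lay within the lowest 9.4% of signals in the control samples and the lowest 22.5% in the shear samples. The annotation names all 3 as Aldoc, and the probes do not give the same answer for this gene.

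Gapdh, the dehydrogenase that is often taken as a reference gene, did not share the direction of Slc2a1 and Pfkfb3. Its probe, 20530, read 1.73, 2.28 and 3.52 (lowest, median, highest) in control and 1.64, 2.27 and 2.40 in shear samples. The groups lay over each other, and the highest value of all was control replicate 4. The means were 2.36 ± 0.63 (SD, n = 6) and 2.10 ± 0.32 (n = 6), with a difference of -0.26 ± 0.35 (SE) and a 95% interval of -1.02 to 0.49, that is, between 0.493-fold and 1.41-fold. Without the array of control replicates 3 and 4, where Gapdh averaged 2.99 against 1.97 and 2.14 on the other control arrays, the sign turned and the difference was 0.05. Mouse has many processed copies of Gapdh, and hybridisation to them cannot be told apart from the gene itself.

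**Figure D2:**
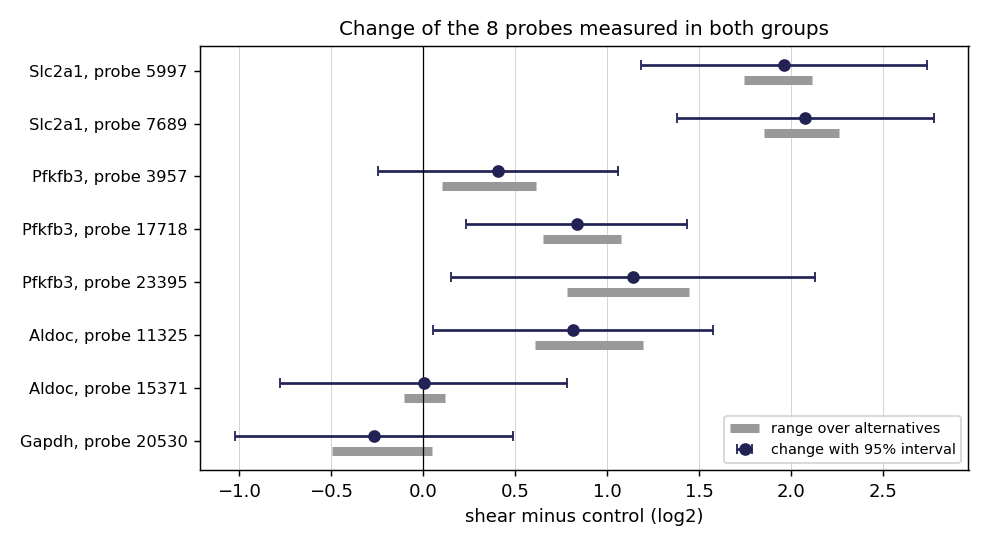
Shear minus control on the log2 scale (x axis) for the 8 probes with enough values in both groups; points are the fitted differences with 95% intervals, and grey bars span the values under the other ways of processing. Both Slc2a1 probes sit near 2, Pfkfb3 between 0.41 and 1.14, Aldoc at 0.00 and 0.81, and the grey bar of Gapdh reaches from -0.50 to 0.05. The intervals are not adjusted for the choice of the genes on this comparison and do not serve as a test.

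The test across all probes was limma with group and dye in the model and the array as a random block, with Benjamini-Hochberg adjustment over 21883 probes and a threshold of 0.05. Of those probes 1.45% passed higher and 0.206% lower under shear, and in 6.26% every shear value lay above every control value. Of the 8 probes, 4 had every shear value above every control value, those of Slc2a1 and Pfkfb3 probes 17718 and 23395. Since the genes were selected on this comparison, no test result is given for them and that count is not set against the share over all probes. The median difference of all probes was 0.104, and 87.6% of the probes that passed were higher. With samples centred on the probes measured in all of them the median was -0.02 and 66.6% of those that passed were higher, and with cyclic loess these were -0.02 and 69.7%. Under those scalings the Slc2a1 probes were at 1.82 and 1.75 (5997) and at 1.94 and 1.85 (7689), and the Gapdh probe at -0.40 and -0.50.

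The dye was a measure that the choice of genes did not use, since each array carried both. Across all probes 10.1% differed between Cy5 and Cy3 by the same limma fit, and 0 of the 8 probes did, with 3 of 8 at an unadjusted p below 0.05, as were 32.1% of all probes. Gapdh was lower in Cy5 on 6 of 6 arrays, by 0.02 to 1.06, and its fitted dye difference was -0.36 ± 0.14 (SE, adjusted p = 0.0994). The dye differences of the Slc2a1 probes, 0.04 (5997) and 0.20 (7689), were small beside their differences between groups. Those of the Pfkfb3 probes were -0.24 (3957), 0.26 (17718) and 0.39 (23395), and those of Aldoc 0.03 (11325) and 0.35 (15371), with limma adjusted p from 0.111 to 0.914 over these 5 probes.

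Genes with the most similar profile were found for 1 probe of each gene, by the root mean square difference between profiles after each was centred on its own mean. This is a description over samples that share arrays. It takes control and shear samples together, so it includes the group difference on which the genes were chosen. A near profile is therefore not separate evidence of shared regulation. Over 12 samples, the nearest to Slc2a1 (probe 7689) were Ccdc86 at 0.25, the esterase Esd at 0.26, the macrophage growth factor Csf1 at 0.30 and the ribosome assembly factor Nip7 at 0.30, where the median over 12628 probes was 1.07. Shear and control differed by 2.21, 1.86, 2.39 and 1.75 in these genes. For Pfkfb3 (probe 17718) they were Cox10 at 0.15, Btg3 at 0.16, 1110038B12Rik at 0.17 and B3galnt2 at 0.17, with a median of 0.58 over all. For Aldoc (probe 11325), over the 10 samples with a value, they were Ier2 at 0.20, Isca1 at 0.20, the laminin chain Lamc1 at 0.20 and the sulfatase Arsb at 0.22 (median 0.69). For Gapdh they were Susd6 at 0.29, the helicase Ddx41 at 0.30, Pwp1 at 0.31 and the histone deacetylase Hdac1 at 0.31 (median 0.71).

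The rest of the glucose pathway was read from a list of 151 further genes in 10 roles, of which 105 were on the array and 97 had enough values, on 163 probes. The list was chosen with earlier results of these data known. Its shares are therefore set beside those of all genes as a description, not as a test of the pathway. By limma with Benjamini-Hochberg adjustment over all probes, 4 of the 97 genes had a probe that rose and 0 had a probe that fell, beside 2.3% and 0.314% of all 8928 named genes. At an unadjusted p below 0.05 there were 15 genes higher and 8 lower, where 15.9% and 5.95% of all named genes were. On 14 of the 163 probes, or 8.59%, every shear value lay above every control value, beside 6.26% of all probes. The median difference of the listed genes was 0.15, beside 0.10 for all named genes. Over the 163 probes of the listed genes the median was also 0.15. This probe median was 0.02 with samples centred on the probes measured in all of them and -0.02 with cyclic loess. Each was close to the median of all probes in that setting. The genes that rose were Slc16a1, Tbc1d1, Pgam5 and Myc.

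Of the 6 other glucose carriers measured, none passed, and their median difference was -0.01. The highest was Slc2a6 (probe 15599) at 1.04, whose control array of replicates 3 and 4 read 0.06 and 0.38 while the other controls read -2.01 to -1.40. The lowest gene by its mean was Slc2a12 (probe 855) at -0.25. Slc2a8, an intracellular carrier, had probes at -1.11, -0.05 and 0.58, and the first of these, 11898, had no overlap between control (-1.04 to -0.22) and shear (-2.05 to -1.17) without passing (limma, adjusted p = 0.0839). Slc2a3 was at -0.10 and the insulin-responsive carrier Slc2a4 at 0.64. Without the array of control replicates 3 and 4, Slc2a6 was at 1.71, Slc2a3 at -0.48 and the third Slc2a8 probe, 27403, at -0.03. Slc2a8 probe 10389 ran from -0.34 to 0.17 over the arrays left out. Slc2a3 turned positive, at 0.06, 0.11 and 0.12, without the array of control replicates 1 and 2, control replicates 5 and 6 or shear replicates 3 and 4.

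The genes listed under the steps from hexokinase to pyruvate kinase showed few differences past the threshold. The ADP-dependent glucokinase Adpgk was at 0.65 and 0.56 on its probes and hexokinase Hk1 at -0.17 on both. Among the phosphofructokinases and their regulators the highest was Pfkfb4, which like Pfkfb3 makes the activator, at 0.67, and the lowest was the muscle form Pfkm at -0.62, with a median of 0.24 over 7 genes. The main aldolase Aldoa was at -0.26, 0.01 and 0.15 on 3 probes, and the triose phosphate isomerase Tpi1 at -0.40. The mitochondrial glycerol phosphate dehydrogenase Gpd2 (probe 22672) was at 0.76, with control samples from 0.78 to 1.25 and shear samples from 1.68 to 2.03, and did not pass (limma, adjusted p = 0.105). Of lower glycolysis, pyruvate kinase Pkm was at 0.40 and -0.44 and phosphoglycerate kinase Pgk1 at 0.24. Some of these values turned their sign when 1 array was left out. Without the array of shear replicates 5 and 6, which read -0.01 and 0.34 for Tpi1, that gene was at 0.46 and Hk1 probe 7722 at 0.06. Pgk1 was at -0.39 without the array of control replicates 3 and 4 and at -0.02 without that of shear replicates 1 and 2, and the lower Pkm probe, 22272, at 0.10 without that of shear replicates 1 and 2. Aldoa probe 1139 ran from -0.61 to 0.03 and probe 2605 from -0.13 to 0.15 over the arrays left out, while probe 9688 stayed positive. Of the 24 genes listed under carriers and the steps of glycolysis, 1 rose (4.17%), beside 2.3% of all named genes, and their median was 0.17. That gene was Pgam5, which is not itself known as an enzyme of glycolysis.

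Pgam5 is named after the phosphoglycerate mutases, but is known as a protein phosphatase of mitochondria. Its probe 25965 ran from -0.86 over -0.31 to 0.14 in control and from 0.18 over 1.06 to 1.29 in shear samples, so the groups met without overlap. The difference was 1.22 ± 0.26 (SE, limma adjusted p = 0.0336). The second probe, 25007, was at 1.00 and did not pass (adjusted p = 0.107), but did without shear replicate 2 and without the array block. Probe 25965 no longer passed in 15 of 30 other settings, among them the fit on array means, those without control replicate 1, 3 or 6 or shear replicate 1 or 6, and those that left out any 1 array other than that of shear replicates 1 and 2.

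The carrier of lactate and pyruvate across the cell membrane, Slc16a1 (MCT1), rose by 1.19 ± 0.26 (SE, limma adjusted p = 0.0341), on its probe 6644. Its control samples read -0.64, -0.55 and -0.05 (lowest, median, highest) and its shear samples 0.42, 0.61 and 1.23, with no overlap. It no longer passed in 14 of 31 other settings, among them the fit on array means, those without control replicate 3 or 6 or shear replicate 1, 3, 4 or 6, and those that left out any 1 array other than that of control replicates 1 and 2. Of 20 genes of lactate and pyruvate handling no other passed. Lactate dehydrogenase Ldha was at 0.19 (-0.01 without the array of shear replicates 1 and 2), the second lactate carrier Slc16a3 at 0.63 with 4 values in each group, and the lowest gene, the mitochondrial carboxykinase Pck2, at -0.04 and -1.13.

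Tbc1d1, known for holding back the movement of glucose carriers to the cell surface, rose on 2 of 3 probes. Probe 16016 read -0.07, 0.12 and 0.33 in control and 1.18, 1.36 and 1.74 in shear samples, and rose by 1.25 ± 0.24 (SE, limma adjusted p = 0.0198). Probe 863 rose by 1.33 ± 0.26 (SE, adjusted p = 0.0218), from -0.01 to 0.37 in control to 0.96 to 1.84 in shear samples. Probe 9080 was at 0.92 and did not pass, with shear replicates 3 and 4 at -0.51 and -0.06 among controls of -0.64 to -0.02. Probes 863 and 16016 no longer passed in 8 of 31 and 6 of 30 other settings, the fit on array means among both. For probe 863 these included the fits without shear replicate 1 and those that left out any 1 array other than those of control replicates 3 and 4 and of shear replicates 5 and 6. For probe 16016 they included the fits without control replicate 3 and without the arrays of control replicates 3 and 4, control replicates 5 and 6, and shear replicates 3 and 4.

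Myc, a transcription factor that binds the E-box and is known to drive glucose carriers and glycolytic enzymes, rose on 3 of 4 probes, by 1.85 (16782), 1.81 (17555) and 1.76 (20109), with limma adjusted p of 0.00423, 0.0047 and 0.0126. Probe 20109 no longer passed without the array of control or of shear replicates 3 and 4. The fourth probe, 14454, was at 0.38. Txnip, which is known to restrain glucose uptake, was lower on 2 of 3 probes without passing. Probe 7496 read 2.37, 3.02 and 3.74 in control and 0.08, 1.29 and 1.78 in shear samples, a difference of -1.84 ± 0.46 (SE, limma adjusted p = 0.062). Probe 14352 was at -1.69 ± 0.47 (adjusted p = 0.086) and probe 26415 at 0.14. Probes 7496 and 14352 both passed as lower without the array block. Probe 7496 alone passed as lower with cyclic loess, with quantile normalization, without the dye term and without shear replicate 5. Without shear replicate 2, probe 14352 alone passed as lower.

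**Figure D3:**
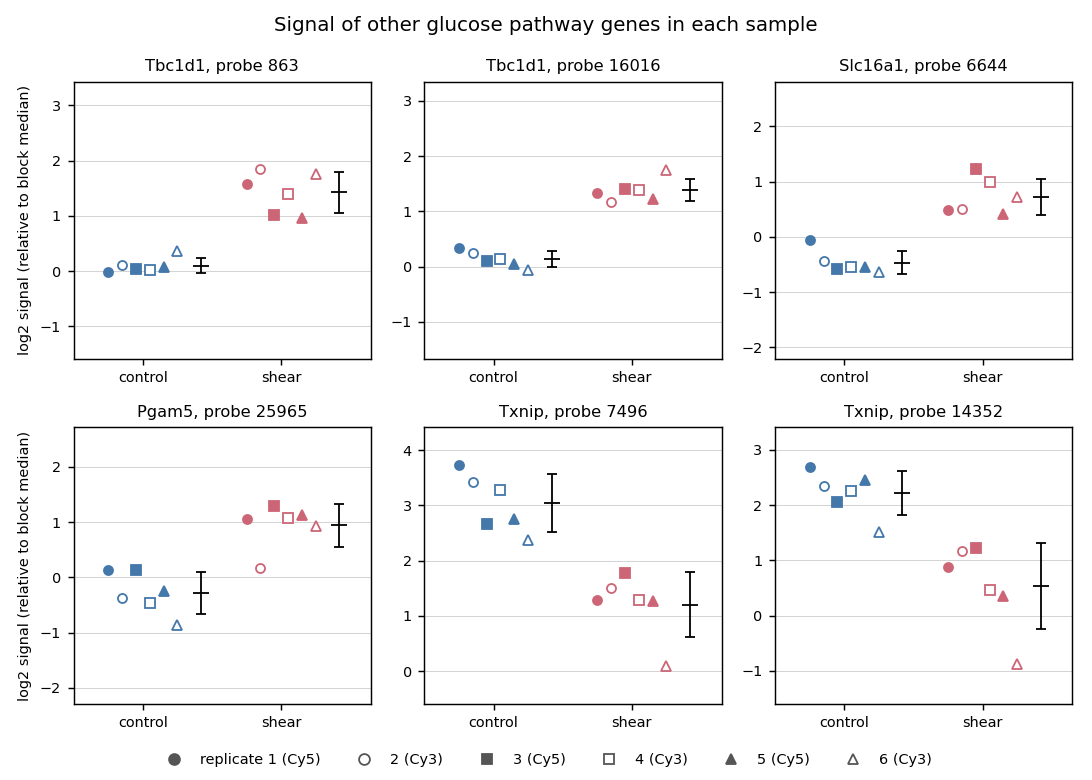
Log2 signal (y axis, relative to the block median) of Slc16a1, Tbc1d1, Pgam5 and Txnip probes in each sample, with control in blue and shear in red, shapes for arrays, filled symbols for Cy5 and black bars for the mean ± SD (n = 6 per group). The panels share 1 span. Drawn are the Slc16a1, Tbc1d1 and Pgam5 probes that passed, and Txnip probes 7496 and 14352. Tbc1d1 probe 9080, Pgam5 probe 25007 and Txnip probe 26415 are not drawn. Each panel shows groups without overlap, which that choice of probes favours. The Txnip probes drawn, whose shear replicate 6 is the lowest, did not pass the test.

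The remaining roles held no gene that passed in the setting described above. In the pentose phosphate branch, which makes ribose and reducing power from glucose phosphate, the median over 8 genes was 0.51, beside the 0.10 of all named genes. Its highest was the ribose phosphate isomerase Rpia (probe 7395) at 0.83, with 0.88 to 1.23 in control and 1.69 to 2.27 in shear samples (limma, adjusted p = 0.0929), and its lowest Prps2 at -0.41. Genes of glycogen and hexosamine metabolism had a median of -0.04 over 16 genes, from Pgm2 at 0.49 to the glycogen phosphorylase Pygb at -0.96 and -0.88 on its probes. Pygb probe 22457 passed as lower without control replicate 4, at -1.19 (limma adjusted p = 0.0204), without the array of control replicates 3 and 4, at -1.14 (limma adjusted p = 0.0432), and without the array block. Of 18 regulators, those besides Myc and Tbc1d1 did not pass, and the hypoxia factor subunit Hif1a was at 0.17. Arnt was at -1.54 (3902), -0.60 (9943) and -0.48 (16809). Its probe 3902 passed as lower without shear replicate 1, at -1.87 (limma adjusted p = 0.00868). The same probe passed without the array of shear replicates 1 and 2, at -1.92 (limma adjusted p = 0.0185), and without the array block. Of 11 other targets of the hypoxia response none passed, with a median of 0.25. Bhlhe40, a repressor of transcription, was the highest at 1.12, with shear replicate 1 at -0.03 and the other shear samples at 1.62 to 2.90. Without the array of shear replicates 1 and 2 Bhlhe40 passed as higher, at 1.70 (limma adjusted p = 0.0201). The mitophagy receptor Bnip3l had probes at 0.23, -0.63 and -0.81.

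**Figure D4:**
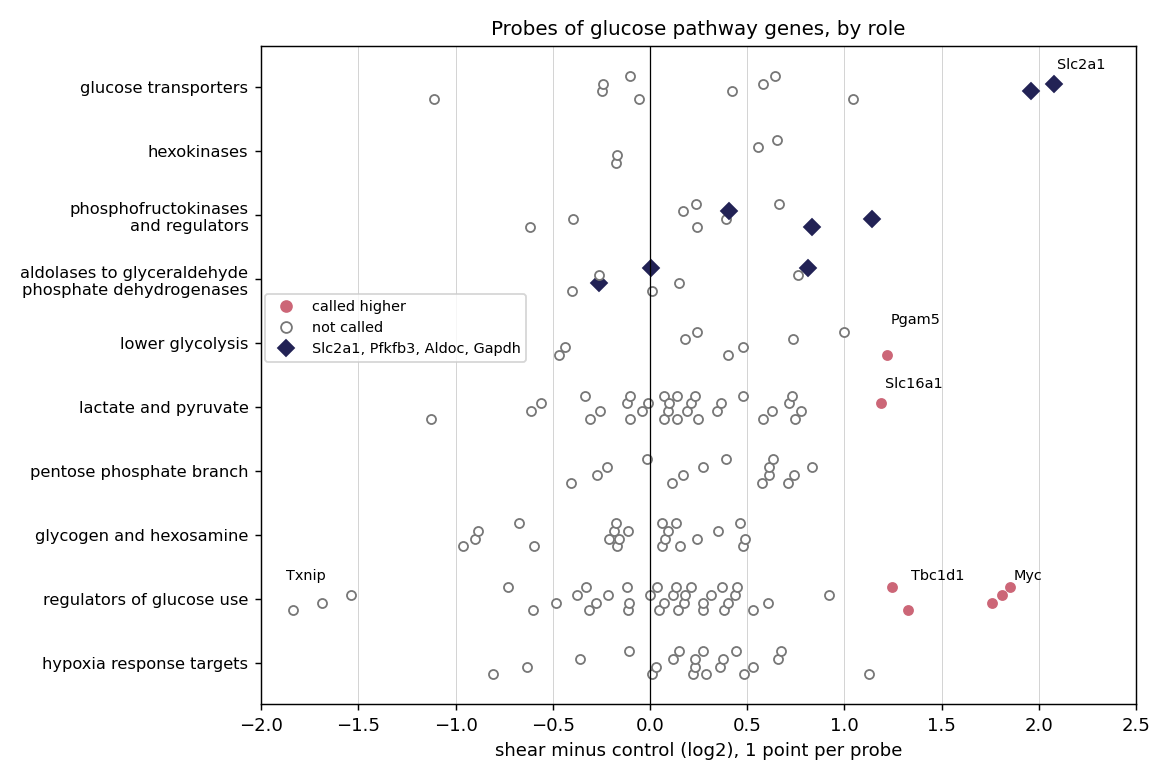
Shear minus control on the log2 scale (x axis) for every tested probe of the glucose pathway list, 1 point per probe, arranged by role; red points passed the test as higher and open circles did not pass. Dark diamonds are the probes of Slc2a1, Pfkfb3, Aldoc and Gapdh, which were chosen on this comparison and are drawn without a test result. Most probes of every role lie between -1 and 1, and the 3 Myc probes that passed and the Slc2a1 probes lie at 1.76 or above.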

How the data were processed

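Total RNA of 12 samples, 6 control and 6 shear, was copied into Cy5- or Cy3-labelled cDNA and hybridised to 6 spotted arrays, per the labels' protocols. The deposited values are log2 values made by the authors, while scanner, background correction and the treatment of missing spots are not given in the labels. The values were found to be log2 of a whole-number net fluorescence over its median in a block of 598 probes (48 blocks, 576 of 576 combinations of block and sample, whole within 0.002). A shift common to all genes can therefore not be seen. Of the probes, 18511 had 1 gene symbol, 937 several and 9256 none, and 18267 symbols were updated through the Entrez number. Those with several stayed unnamed.

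Models were fitted in R 4.3.3 with limma 3.58.1 and the package data.table in version 1.17.8. Python 3.11.15 with numpy 2.4.6, pandas 2.3.3 and matplotlib 3.10.9 did the rest. Every probe was a feature, and 4 values per group were the minimum. The limma model held group and dye, with the array as a random block (correlation 0.7206). Missing values were dropped, not imputed. Each array held 1 group, so the comparison rests on 3 arrays a side, but the degrees of freedom count samples, and p-values can be too small. A gene counted as passing where any of its probes did. Precision is limited by the number of arrays. The fit was also run on simulated data, drawn with the variances and array correlation of the fit itself. Such data cannot show whether the p-values of the real samples are too small.

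The members and the gene lists were chosen with earlier results of these data known. The rule for naming took every member probe, every pathway gene with a passing probe, the highest and lowest gene of each role by the mean over its probes, and the 4 genes of most similar profile. Other pathway genes named in the text were chosen after their values were seen. Alternatives covered scaling, filters, terms of the model, and each sample and array left out.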

Additional observations from a re-analysis of the deposited data

Results flagged for a closer look

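In 7 of 33 groups of 6 or fewer samples examined, 1 sample lay far from the others of its group by Dixon's ratio, where chance gives about 1 in 20 groups and samples of 1 array are not independent. On Slc2a1 probe 7689, shear replicate 2 was the lowest at 2.15, with the next at 2.97. The same sample was the lowest on Pgam5 probe 25965 at 0.18 (next 0.93) and the highest on Myc probe 20109 at 3.17 (next 2.47). It also had the fewest probes with a value in its group, 21847 (next 23039). On Pfkfb3 probe 23395, control replicate 4 was the lowest at -2.26, with the next at -0.72. On Slc16a1 probe 6644, control replicate 1 was the highest at -0.054 (next -0.433). On Tbc1d1 probe 863, control replicate 6 was the highest at 0.37 (next 0.10). Without shear replicate 2 the differences were 2.23 for Slc2a1 probe 7689 and 2.09 for probe 5997.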

How the results depend on the processing

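Over 31 alternatives the Slc2a1 probes stayed between 1.75 and 2.26 and the Pfkfb3 probes between 0.10 and 1.45. Aldoc probe 11325 stayed between 0.61 and 1.20 in the 24 alternatives that measured it, and probe 15371 turned negative in 7 of 22. Gapdh lay between -0.50 and 0.05 and was above 0 in 1 of 31. Against 362 probes that passed for shear, there were 235 with 1 probe per gene, 235 with quantile normalization, 2664 without the array block, 106 with arrays averaged, 568 without the dye term and 166 with the replicate block. Replicate numbers did not pair the samples, since deviations of same-numbered samples correlated at -0.0908 to 0.116 and 1 sample correlated best with its own number. Leaving out 1 sample gave 157 (without control 3) to 411 (without shear 2). Leaving out the array of control replicates 1 and 2, 3 and 4, or 5 and 6 gave 216, 238 and 164, and that of shear replicates 3 and 4 or 5 and 6 gave 76 and 127. Against 4 pathway genes, there were 2 with 1 median per sample, 20 without the array block (13 higher, 7 lower), 1 with arrays averaged and 1 with the replicate block. Leaving out 1 sample gave 2 to 5, leaving out the array of control 5 and 6 or shear 3 and 4 gave 1 each, and that of shear 5 and 6 gave 2. Slc2a8 fell with samples centred on the probes measured in all. Against 2207 probes that differed between dyes, there were 897 with cyclic loess, and 0 by limma without the array block (1404 at an unadjusted p below 0.05), and leaving out 1 sample gave 78 (without shear 3) to 2411 (without control 3). The causes were not tested. Aldoc probes 15371 and 28287 and Pfkfb3 probe 3957 lay within the lowest 36.7% of signals in every sample, where a difference can be missed.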

Other observations

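The Myc probe 14454, which did not pass, read 1.08 and 1.04 in control replicates 1 and 2 and 2.97 and 2.77 in shear replicates 3 and 4, while the other 8 samples lay below 0, down to -2.15. Samples of 1 array went together there. Tpi1 (probe 16542) read -0.01 and 0.34 in shear replicates 5 and 6 and 1.83 to 3.52 in the other 10 samples.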
